A study of Mus musculus with 3 samples.

Results

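The MS4A genes encode a family of small membrane proteins related to CD20, and 8 of them, Ms4a4b, Ms4a4c, Ms4a4d, Ms4a6b, Ms4a6c, Ms4a6d, Ms4a7, and Ms4a8a, were followed here in stimulated macrophages. The 8 were listed with earlier results of these data known, so that their shares and medians below describe this list only. Their probes were taken by name, as those that are not controls and whose gene name on the array is that of a member. All 8 were found, with 11 probes, among the 34821 gene names of the array. The cells were BMDMs, macrophages grown from bone marrow of C57BL/6J mice with M-CSF, and each of 3 conditions had 1 array after 20 h. The conditions were CpG, a DNA ligand of TLR9; IFN-γ + αIL-10R, the cytokine with a blocking antibody to the IL-10 receptor (IL-10RB in the sample labels); and Triple, which is CpG, IFN-γ, and αIL-10R together. CpG was thus given without the antibody, both arrays with IFN-γ also had the antibody, and no array of unstimulated cells was analysed here. With 1 array per condition no difference below has a replicate check, and no p-value is given.

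MS4A proteins cross the membrane several times, and most have no enzymatic activity of their own. They sit beside receptors and change how those signal: Ms4a1 (CD20) in B cells and Ms4a2, the β chain of the high-affinity IgE receptor, in mast cells and basophils are the best known. In macrophages MS4A4A associates with the fungal glucan receptor dectin-1, and Ms4a6d has been linked to Vsig4, a complement receptor. The genes lie side by side on mouse chromosome 19.

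A processed signal is an intensity from which the scanner software subtracted a fitted background. A gene is called detected here if its probe was well above background on every array. For folds, log2 signals were first shifted by the 75th percentile of each array, which lay at a signal of 4550 in CpG, 4473 in IFN-γ + αIL-10R, and 4377 in Triple. Signals in the text are given before this shift. Replicate spots of the same probe had an SD (log2) of 0.08, 0.08, and 0.09 in the same order, so that the technical SD of a log2 fold between single spots was 0.11. A difference of 2 such SD, 0.23, is used below as the spread between spots, and it contains no difference between cultures. Every MS4A probe had 1 spot, none was marked as an outlier for the 8 members, and no spot was saturated. Different probes bind RNA with different strength, so that signals are compared between arrays and not between genes, and the summed signals of marker lists given below are set mostly by their brightest probes.

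The conditions were visible in genes known to respond to them. All 13 measured genes of a list of IFN-γ targets were lower in CpG than in IFN-γ + αIL-10R by more than 2-fold, and all 12 genes of a list of TLR targets were higher in Triple than there by more than 2-fold. CpG alone showed the TLR list less clearly, with 7 of 12 called higher than in IFN-γ + αIL-10R and 1, Ptgs2, lower. All 7 measured macrophage markers, among them Csf1r, the M-CSF receptor, and Emr1, an adhesion receptor of mature macrophages, were detected.

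Of the 8 MS4A members, 6 were detected, and Ms4a4d and Ms4a8a were at background on every array. With each gene read from its brightest probe, 5 of the 6 detected members had their highest signal in Triple, and the exception was Ms4a7, which had it in CpG. Over all 15894 detected genes, 31.9% were highest in Triple. No detected member was lowest in Triple on its brightest probe, as were 40.5% of those genes, although the dimmer probe of Ms4a4b was. On the brightest probes Ms4a4b, Ms4a4c, and Ms4a6b were lowest in CpG, and Ms4a6c, Ms4a6d, and Ms4a7 were lowest in IFN-γ + αIL-10R. Of the 15894 detected genes, 29.4% were lowest in CpG and 30.0% in IFN-γ + αIL-10R, which is about as even. These arrays hold RNA of whole cultures, in which fewer cells of a type and less RNA per cell cannot be told apart.

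**Figure D1:**
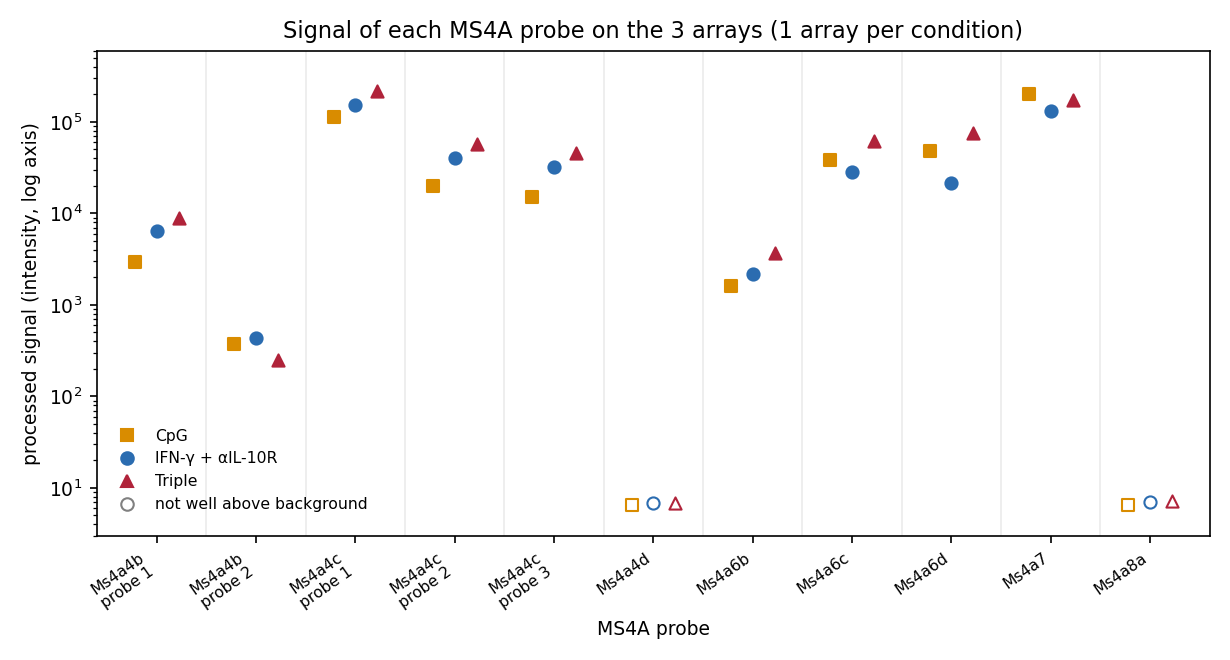
Processed signal (intensity, log axis) of the 11 MS4A probes on the CpG, IFN-γ + αIL-10R, and Triple arrays, 1 point per array, with open symbols for signals not well above background. Triple is the highest point for every detected probe except probe 2 of Ms4a4b and the probe of Ms4a7, and the 2 probes with open symbols lie between 6.52 and 7.13.

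The regions before the start sites of the Ms4a4b and Ms4a4c pair and of the Ms4a6b and Ms4a6c pair are shown first because each pair is alike in sequence, while the order of the arrays was common to the former pair and not to the latter. The 250 bases before each start are given 5′ to 3′ from RefSeq (GRCm38.p6), in lower case with matches to the IRF motif searched in capitals.

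Ms4a4b, chr19:11443308-11443557, + strand: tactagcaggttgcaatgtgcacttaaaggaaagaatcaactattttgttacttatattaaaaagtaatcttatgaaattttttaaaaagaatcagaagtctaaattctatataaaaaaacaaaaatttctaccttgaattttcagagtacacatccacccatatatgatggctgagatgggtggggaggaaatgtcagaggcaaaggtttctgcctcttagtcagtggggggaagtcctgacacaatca
Ms4a4c, chr19:11407411-11407660, + strand: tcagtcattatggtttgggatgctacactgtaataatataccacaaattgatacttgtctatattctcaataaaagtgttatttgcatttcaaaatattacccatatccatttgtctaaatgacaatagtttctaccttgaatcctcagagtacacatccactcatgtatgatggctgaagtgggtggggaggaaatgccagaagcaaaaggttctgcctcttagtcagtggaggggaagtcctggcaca
Ms4a6b, chr19:11518309-11518558, + strand: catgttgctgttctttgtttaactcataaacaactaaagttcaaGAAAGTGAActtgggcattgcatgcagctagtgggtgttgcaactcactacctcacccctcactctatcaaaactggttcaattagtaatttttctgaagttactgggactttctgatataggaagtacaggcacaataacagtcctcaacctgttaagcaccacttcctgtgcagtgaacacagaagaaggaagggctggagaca
Ms4a6c, chr19:11469118-11469367, + strand: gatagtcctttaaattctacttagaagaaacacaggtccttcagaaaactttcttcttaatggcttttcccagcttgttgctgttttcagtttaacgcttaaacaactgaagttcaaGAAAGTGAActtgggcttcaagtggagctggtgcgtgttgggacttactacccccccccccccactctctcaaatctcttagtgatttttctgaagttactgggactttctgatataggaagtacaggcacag

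In a local alignment the windows of Ms4a4b and Ms4a4c shared 176 identical bases over 244 columns (72.1%), and those of Ms4a6b and Ms4a6c shared 149 over 182 columns (81.9%), with an unbroken run of 48 bases. The other 33 pairs of windows among the members and Ms4a4a shared 65 to 125 identical bases, with no common run above 9. A match to GAAANNGAA, which IRF proteins of the interferon response bind in many promoters, lies 206 to 198 bases before the start of Ms4a6b and 133 to 125 bases before that of Ms4a6c, within a run of 24 bases common to both. Windows of 250 bases before to 50 after the start were searched on both strands for 7 members, and Ms4a7 has 2 such windows. Ms4a6d had no window in the table used. Matches to GAAANNGAA were found for 3 of the 7 members, Ms4a6b, Ms4a6c, and Ms4a7, and in 8.56% of all 32851 windows. No member's window held an NF-κB motif, found in 8.46% of all windows, or the PU.1 motif GAGGAAGT, found in 3.20%. The window of Ms4a4a, which is not a member, held an NF-κB match 247 to 238 bases before the start. The AP-1 motif TGANTCA was found for Ms4a4b, Ms4a7, and Ms4a8a and in 7.81% of all windows. These are matches of letters, and no binding was measured.

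The Ms4a4 genes are the branch of the family with members in T cells as well as in macrophages. Ms4a4b is best known from T cells, where its protein associates with GITR. Its probe A_55_P1988975, designed on an Ensembl transcript (ENSMUST00000142135) at chr19:11532299-11532358 (mm9), gave processed signals of 2977 in CpG, 6346 in IFN-γ + αIL-10R, and 8825 in Triple. The 3 arrays were thus ordered CpG, IFN-γ + αIL-10R, Triple, with each step above 2 technical SD. Ms4a4b was 3.08-fold higher in Triple than in CpG, 1.42-fold higher in Triple than in IFN-γ + αIL-10R, and 2.17-fold lower in CpG than in IFN-γ + αIL-10R.

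The second probe of Ms4a4b, A_51_P136294, is designed on the RefSeq mRNA (NM_021718) and lies downstream at chr19:11537629-11537688. Its processed signals were 371 in CpG, 433 in IFN-γ + αIL-10R, and 250 in Triple, so that here Triple was the lowest array. The log2 fold of Triple over CpG was 1.62 on the first probe and −0.52 on this one, and that of Triple over IFN-γ + αIL-10R was 0.51 and −0.76. Every other statement on the order, folds, and calls of Ms4a4b, before and after this, therefore holds for the brighter probe only. Exceptions are named where they occur. The medians over the members also use that probe, and which probe measures the coding mRNA was not tested.

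Ms4a4c, a close relative of Ms4a4b, had 3 probes, all on NM_029499. The probe at chr19:11493486-11493545 (mm9) reads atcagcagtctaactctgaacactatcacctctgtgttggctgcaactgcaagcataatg and is shown because it contains no simple repeat. It gave processed signals of 15287 in CpG, 32516 in IFN-γ + αIL-10R, and 45641 in Triple. The probe at chr19:11500973-11501032 gave 19777, 40361, and 57121 in the same order. The brightest probe, at chr19:11500839-11500898, gave 112988, 153594, and 219474, and it contains a GT repeat of 28 bases. All 3 probes thus ordered the arrays as the brighter probe of Ms4a4b did.

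The probes of Ms4a4c differed in the size of the step from CpG. The log2 fold of Triple over CpG was 1.63 and 1.59 on the probes without the repeat and 1.01 on the brightest, and CpG was lower than IFN-γ + αIL-10R by 2.16-fold, 2.08-fold, and 1.38-fold. Triple was higher than IFN-γ + αIL-10R by 1.43-fold, 1.45-fold, and 1.46-fold. In both comparisons with CpG the 2 probes without the repeat lay within 2 technical SD of the brighter Ms4a4b probe. The longest run of bases common to probes of different genes, among the members and Ms4a4a, was 9. Probes were compared only with each other, and whether a probe binds RNA of another member was not tested.

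Ms4a4d, the next gene of the group, was at background on every array, with processed signals of 6.52 in CpG, 6.78 in IFN-γ + αIL-10R, and 6.84 in Triple from a probe of 60 bases whose position spans 1325 bases (chr19:11629387-11630711, mm9). The lowest signals above background were 23.8, 26.7, and 26.3 in the same order, so that no fold is given for Ms4a4d.

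The Ms4a6 genes are expressed in myeloid cells, among others. Ms4a6b (chr19:11604834-11604893, mm9, NM_027209) gave processed signals of 1596 in CpG, 2159 in IFN-γ + αIL-10R, and 3717 in Triple, the same order as Ms4a4b and Ms4a4c. It was 2.42-fold higher in Triple than in CpG and 1.76-fold higher in Triple than in IFN-γ + αIL-10R, and CpG was lower than IFN-γ + αIL-10R by 1.38-fold.

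Ms4a6c (chr19:11545580-11545639, mm9, NM_028595) gave 38124 in CpG, 28288 in IFN-γ + αIL-10R, and 62204 in Triple. Here CpG and not IFN-γ + αIL-10R was the middle array, opposite to Ms4a6b with its similar promoter window. Ms4a6c was 2.25-fold higher in Triple than in IFN-γ + αIL-10R, 1.70-fold higher in Triple than in CpG, and 1.32-fold higher in CpG than in IFN-γ + αIL-10R.

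Ms4a6d had the widest range of the 6 detected members. Its processed signals were 48420 in CpG, 21716 in IFN-γ + αIL-10R, and 75636 in Triple (chr19:11661426-11661485, mm9, NM_026835). Ms4a6d was 3.56-fold higher in Triple and 2.19-fold higher in CpG than in IFN-γ + αIL-10R, and 1.62-fold higher in Triple than in CpG. Each step of Ms4a6b, Ms4a6c, and Ms4a6d was above 2 technical SD. Of the 15894 detected genes, 16.0% had the order of Ms4a6c and Ms4a6d, and 15.9% had that of Ms4a6b.

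Ms4a7 is a gene of tissue macrophages and had the narrowest range of the 6 detected members. Its processed signals were 204500 in CpG, 132568 in IFN-γ + αIL-10R, and 172359 in Triple (chr19:11395903-11395962, mm9, NM_001025610). CpG was 1.52-fold and Triple 1.33-fold higher than IFN-γ + αIL-10R. The log2 fold of Triple over CpG was −0.19, within 2 technical SD, so that these neighbours in the order did not differ beyond the spread between spots.

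Ms4a8a, known from alternatively activated macrophages, was at background with 6.58 in CpG, 7.02 in IFN-γ + αIL-10R, and 7.13 in Triple. The probe (chr19:11142131-11142190, mm9, NM_022430) reads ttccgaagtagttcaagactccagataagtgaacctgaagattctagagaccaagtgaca. Arg1, Retnla, and Chi3l4, other genes of alternative activation, were at background as well, whereas Mrc1, the mannose receptor, gave 5910 in CpG, 3274 in IFN-γ + αIL-10R, and 76.4 in Triple. Other genes of that list moved differently: Mgl2, a lectin, gave 24354, 51331, and 97240 in the same order, and Chi3l3 was detected at 91.2, 89.4, and 72.2, with no call.

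**Figure D2:**
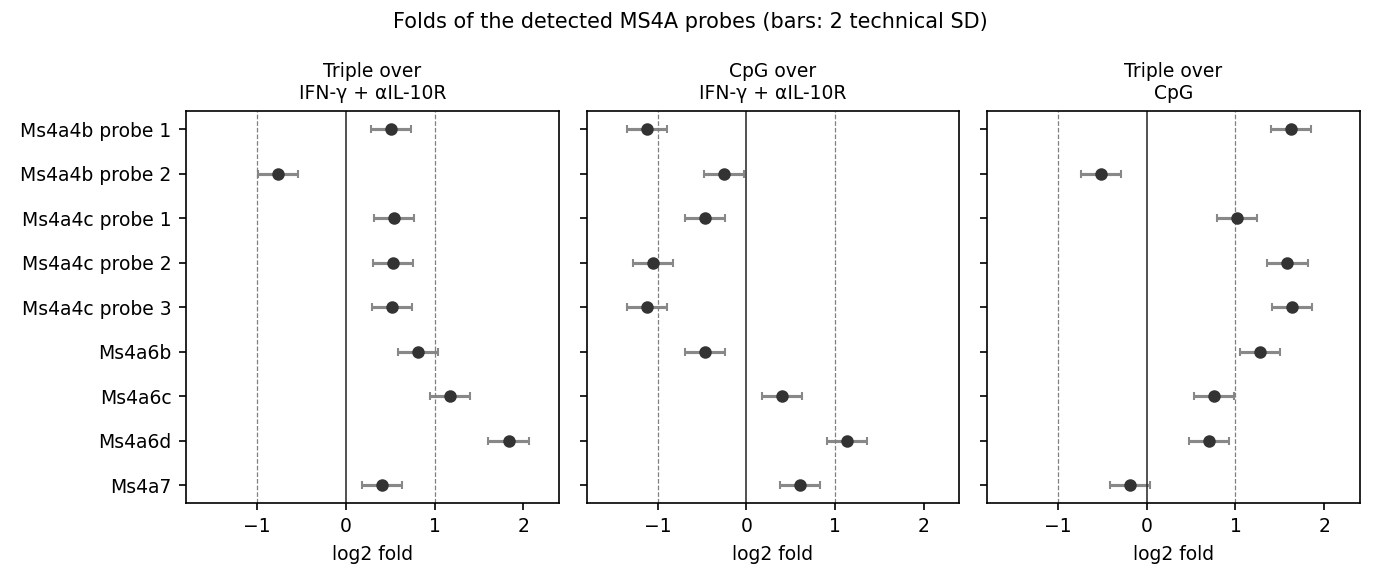
Log2 fold of each of the 9 detected MS4A probes in the 3 comparisons, with bars of 2 technical SD (0.23) and dashed lines at 2-fold. The Ms4a4b probes lie on opposite sides of 0 for Triple over CpG, at 1.62 and −0.52, and the 3 Ms4a4c probes all lie above 1.

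A member was called if the brighter array was well above background and the difference was more than 2-fold, the threshold of the study. In Triple against IFN-γ + αIL-10R, 2 members were called higher, Ms4a6c and Ms4a6d, and 0 lower. Of all 33597 genes measured, 3.53% were called higher and 5.00% lower in this comparison, and of the 15894 detected genes 5.13% and 8.24%. On their brightest probes all 6 detected members had a fold above 1, with a median log2 fold of 0.68. The median over the 15894 genes was −0.04, and the dimmer probe of Ms4a4b had a log2 fold of −0.76.

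CpG against IFN-γ + αIL-10R divided the members evenly. Ms4a6d was called higher and Ms4a4b lower, 1 in each direction, against 2.75% and 3.18% of all genes measured, or 3.74% and 4.84% of the detected genes. Ms4a6c, Ms4a6d, and Ms4a7 lay above 1 and Ms4a4b, Ms4a4c, and Ms4a6b below 1, and the median log2 fold was −0.03, with −0.00 over the 15894 genes. Ms4a4c was not called here on its brightest probe, but both of its probes without the repeat were lower by more than 2-fold, which would make the lower count 2.

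Triple against CpG called 3 members higher, Ms4a4b, Ms4a4c, and Ms4a6b, and 0 lower. The background was 4.08% higher and 4.55% lower over all genes measured, and 5.99% and 7.00% over the detected genes. The median log2 fold of the 6 detected members was 0.89, and that of the 15894 genes was −0.05. The members called higher in Triple differed between the 2 comparisons, and no member passed 2-fold over both. The comparisons share arrays, so that an error of 1 array enters both comparisons that contain it. The calls of Ms4a4b rest on its brighter probe, and that of Ms4a4c over CpG, at a log2 fold of 1.01, fell to 0.92 with spike-in scaling.

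**Figure D3:**
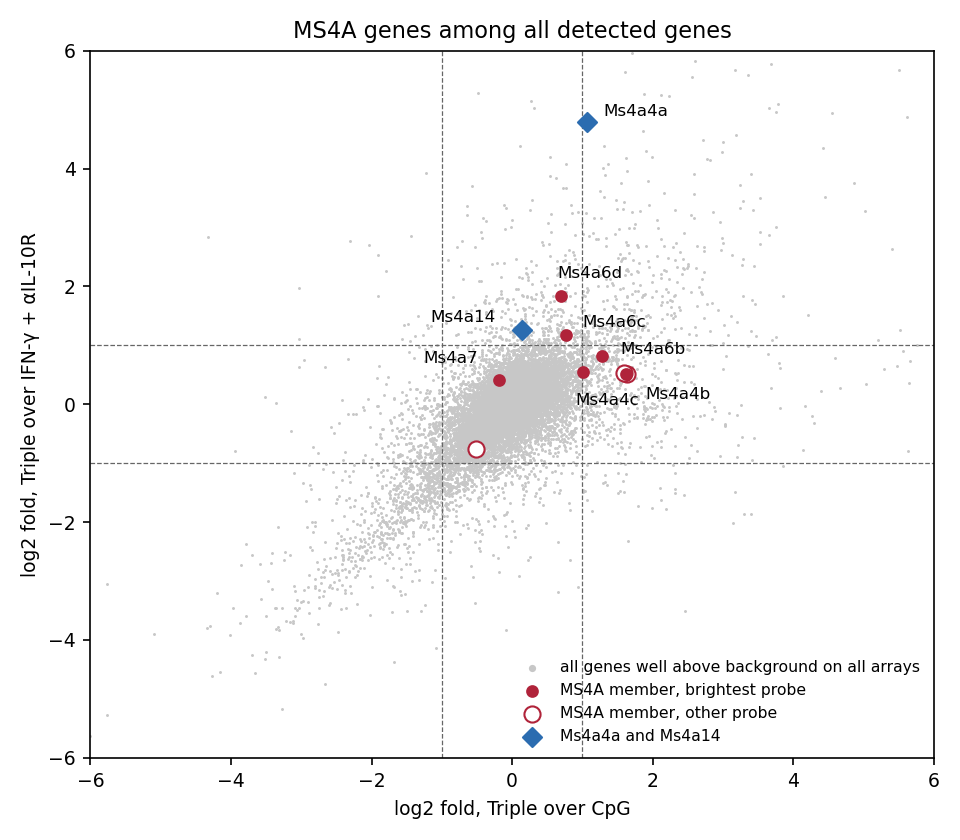
Log2 fold of Triple over CpG (horizontal) and over IFN-γ + αIL-10R (vertical) for the 15894 detected genes (grey, of which 23 lie outside the axes), with the detected MS4A members in red and Ms4a4a and Ms4a14 in blue. Dashed lines mark 2-fold. Ms4a4a lies past both lines at 1.06 and 4.79, and no member lies past both.

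Of the 12 other MS4A genes on the array, 2 were detected and 9 were at background on every array. The former include Ms4a4a, the gene of the dectin-1 partner, which moved more than any of the 8 members. Ms4a4a gave processed signals of 4841 in CpG, 359 in IFN-γ + αIL-10R, and 9706 in Triple. It was 27.6-fold higher in Triple and 13.2-fold higher in CpG than in IFN-γ + αIL-10R, and 2.08-fold higher in Triple than in CpG. Ms4a14 gave 4452, 2015, and 4721 in the same order, 2.39-fold higher in Triple and 2.17-fold higher in CpG than in IFN-γ + αIL-10R, and Triple and CpG differed by 0.14 (log2), within 2 technical SD. Ms4a4a and Ms4a14 were each read from a single probe, designed on a predicted RefSeq mRNA.

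The 20 MS4A genes of the array fall in 1 block of chromosome 19 (chr19:11036787-11704114, mm9). The 8 detected ones lie next to each other, from Ms4a14 to Ms4a6d, with Ms4a4d the only dim MS4A gene among them. The genes outside this stretch, Ms4a8a among them, were at background, except that 1 of the 2 Ms4a10 probes gave 41.2 in IFN-γ + αIL-10R. The array with the lowest signal changed along the stretch: Ms4a7 and Ms4a4a were lowest in IFN-γ + αIL-10R, the adjoining Ms4a4c and Ms4a4b (brighter probe) in CpG, then Ms4a6c in IFN-γ + αIL-10R and Ms4a6b in CpG. A probe without a gene symbol between Ms4a4d and Ms4a6d gave 11009 in CpG, 7352 in IFN-γ + αIL-10R, and 18929 in Triple, the order of Ms4a6c and Ms4a6d.

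**Figure D4:**
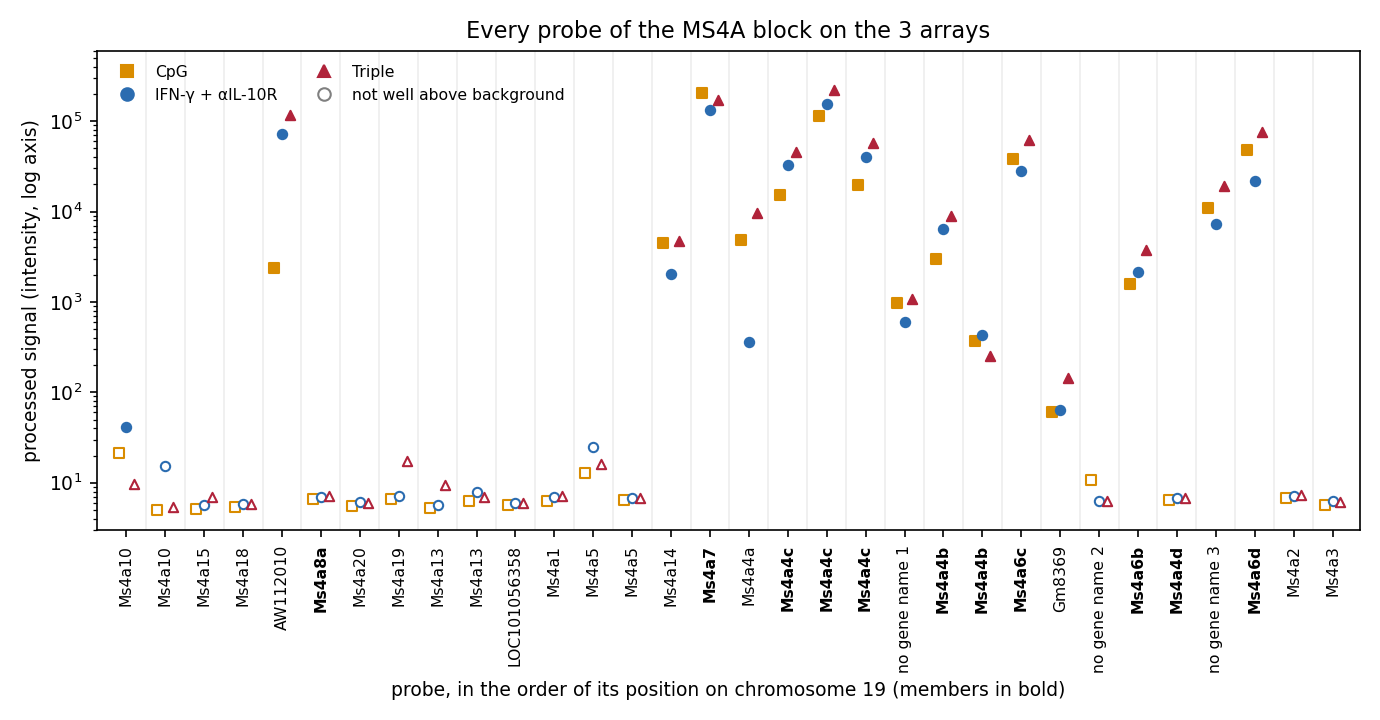
Processed signal (log axis) of every probe of the MS4A block on the 3 arrays, in chromosomal order with equal spacing, with the 8 members in bold and open symbols for signals not well above background. The detected MS4A genes stand together from Ms4a14 to Ms4a6d, with Ms4a4d at 6.52 to 6.84 among them.

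Tmem176a and Tmem176b, more distant relatives of the family that lie on another chromosome, moved the other way from most members between Triple and CpG. Tmem176b gave 98610 in CpG, 3021 in IFN-γ + αIL-10R, and 11582 in Triple on its brighter probe, 32.1-fold higher in CpG than in IFN-γ + αIL-10R and 8.19-fold lower in Triple than in CpG. Tmem176a gave 11911, 163, and 1293, with an outlier mark on its spots in IFN-γ + αIL-10R and in Triple, so that it was left out of the counts over all genes.

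Genes of the proteins that MS4A members are known to work with were listed as well. Of 9 listed, 6 were detected. Syk, the kinase below dectin-1, gave 32408 in CpG, 9302 in IFN-γ + αIL-10R, and 52628 in Triple, the order of Ms4a6d, and was called higher in Triple and in CpG than in IFN-γ + αIL-10R. Clec7a (dectin-1) gave 13481, 22928, and 15385, with no call. Vsig4 was near background, with 77.8, 64.3, and 10.3, and was not well above it in Triple. Trem2, a lipid receptor of macrophages, was lower in Triple, at 18619, than in CpG, at 108475, or in IFN-γ + αIL-10R, at 166295. Tnfrsf18 (GITR) was well above background only in IFN-γ + αIL-10R, at 205. Against IFN-γ + αIL-10R, 1 of the 9 was called higher and 3 lower in Triple, with a median log2 fold of −0.43. Of all genes measured, 3.53% were called higher and 5.00% lower. The lower calls of Tnfrsf18 and Vsig4 rest on signals in Triple that were not well above background. Their folds, which enter the median, are therefore bounds.

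Because Ms4a4b, Ms4a1, and Ms4a2 mark lymphocytes and mast cells, markers of those cells were read on the same arrays. Of 7 measured T cell markers, Cd3d, Cd3g, Cd8a, and Thy1 were at background on every array, while Cd3e gave 858 in CpG, 869 in IFN-γ + αIL-10R, and 806 in Triple and Cd4 gave 1646, 1943, and 1817. Lck gave 94.4, 169, and 150.5. It was lowest in CpG, as the brighter Ms4a4b probe was, but highest in IFN-γ + αIL-10R and not in Triple, and had no call. The summed signal of the T cell list was 2632, 3023, and 2818, and the part of such cells in the Ms4a4b values was not tested. Ms4a1 and Pax5 were at background on all arrays, and the B cell list summed to 918, 304, and 201, of which Cd79b gave 801, 182, and 108. Cd79a was also detected, at 66.6, 75.5, and 43.6. Ms4a2, Fcer1a, Mcpt4, and Mcpt8 were at background on all arrays as well. Tpsb2, another marker of that list, was well above background on every array, at 44.3, 73.5, and 42.4, with no call. The mast cell and basophil list summed to 72.3, 102, and 69.1, most of it from Tpsb2.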

How the data were processed

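The arrays were Agilent mouse 8 × 60K arrays of 1 colour, with 1 array per condition after 20 h. The doses in the study's methods were 0.063 μg/ml for CpG, 100 U/ml for IFN-γ, and 1.25 μg/ml for the antibody. The authors deposited the scanner output of each array, made with Agilent Feature Extraction (version 10.10.1.1 per the submitters' processing notes). The deposited processed signal is a linear intensity from which the scanner software had subtracted the background, and which was not scaled between arrays. They also deposited log2 values in 1 table, which differed from the log2 processed signals by 1 constant per array. The normalization of the study is not given in the sources used here.

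Control spots and outlier-marked spots were left out, which left 52752 probes and 33597 genes. From the log2 signals of an array, its 75th percentile over the 21233 detected probes was subtracted. All probes would have been used if at least 50% of the spots had been well above background, and the mean over the arrays was 45.1%. A gene was its probe with the highest mean. Signals not well above background were raised to the lowest signal that was, so that a fold against them is a bound. The number of arrays and the signal over background limit the precision. The 8 members, the other MS4A genes, and the gene lists, with their markers, were chosen with earlier results of these data known. Named were every member, every other detected MS4A gene, Tmem176a and Tmem176b, list genes by the size of their fold, and the 3 genes most like each member past 2-fold. List genes named for their role (Clec7a, Arg1, Il10, Socs3, and the cell markers) and neighbours in the MS4A block were chosen after their values were seen.

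Positions on mm9 are those of the array annotation. Windows before start sites and current gene names came from RefSeq (GRCm38.p6), where 1700017D01Rik and 1700025F22Rik are Ms4a20 and Ms4a19. Whether a probe lies in a coding exon or a UTR is not given in the sources used here. As alternatives, normexp (limma 3.58.1 in R 4.3.3, offset 50), 6 other scalings, the deposited table, other filters on dim signals, other ways to combine probes, outlier spots kept, and thresholds of 1.5-fold and 3-fold were used. The code was tested on simulated data. Calculations used Python 3.11.15, numpy 2.4.6, pandas 2.3.3, and Biopython 1.88.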

Additional observations from a re-analysis of the deposited data

How the results depend on the processing

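Of the 18 log2 folds of detected members, 16 kept their sign under all 13 alternatives to the processing, and the exceptions were the folds of Ms4a4b in Triple. With RefSeq mRNA probes only, which leaves Ms4a4b its dimmer probe, the log2 fold of Triple over CpG was −0.52 in place of 1.62. Of the 7 calls past 2-fold, 4 held under all 13, and those lost were both calls of Ms4a4b, with RefSeq mRNA probes only and with the mean over a gene's probes (0.55 for Triple over CpG), and that of Ms4a4c over CpG, which was 0.96 without scaling, 0.95 relative to Actb, and 0.92 with spike-in scaling. The count lower in CpG than in IFN-γ + αIL-10R was 0 in place of 1 with the mean over probes, with RefSeq mRNA probes only, and at 3-fold. At 1.5-fold 2 members were higher in CpG than in IFN-γ + αIL-10R (Ms4a6d and Ms4a7) and 5 were higher in Triple than in CpG. At 3-fold 0 were higher in CpG than in IFN-γ + αIL-10R, 1 (Ms4a6d) was higher in Triple than in IFN-γ + αIL-10R, and 1 (Ms4a4b) was higher in Triple than in CpG. The other 82 of 90 counts stayed within 1.5 times of the reported ones.

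The scalings moved the median log2 fold of Triple over IFN-γ + αIL-10R over all detected genes from −0.04 to between −0.18 (spike-in) and 0.07 (75th percentile over all probes), and over that range Ms4a6c and Ms4a6d stayed past 2-fold. Without any filter or floor for dim signals the genes called higher in Triple rose from 1187 to 2522 and those called lower from 1681 to 3088, and at 1.5-fold they were 2410 and 3143, at 3-fold 620 and 822. No paired analysis was possible because there was a single array of every condition, and for the same reason no array could be left out.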

Other observations

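Tetraspanins are another family of small membrane proteins that organise receptors. All 14 genes of a tetraspanin list, chosen with earlier results of these data known, were detected. The median log2 fold of these listed genes was −0.34 for Triple over CpG and −0.31 for Triple over IFN-γ + αIL-10R. The 6 detected MS4A members, also from a list chosen with earlier results known, had 0.89 and 0.68. Tspan3 gave processed signals of 29743 in CpG, 14765 in IFN-γ + αIL-10R, and 142561 in Triple and was called higher in Triple than in both. Cd81 gave 24448, 10945, and 4378 in the same order and was called lower in Triple than in both, and Cd9 was called lower in Triple than in CpG, at 6182 against 15341.

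Of 14 listed genes of IL-10 signaling and alternative activation, 10 were detected. Il10 itself gave 3117 in CpG, 1271 in IFN-γ + αIL-10R, and 9957 in Triple, and Socs3, a target of IL-10 and other cytokines, gave 17358, 8207, and 52485. Both had the order of Ms4a6d, as did 16.0% of the detected genes. Bcl3, of the same list, gave 33392, 7776, and 28701. It was also called higher in Triple than in IFN-γ + αIL-10R but was highest in CpG. Mgl2 was called higher in Triple than in CpG, with a log2 fold of 2.05, and lower in CpG than in IFN-γ + αIL-10R. Clec10a and Mrc1 were the lower calls in Triple against both arrays, with log2 folds of −5.17 and −5.39 over IFN-γ + αIL-10R.

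The genes with a symbol whose pair of log2 folds (Triple against CpG and against IFN-γ + αIL-10R) lay closest to that of a member, over these 3 arrays, were Slc22a4, Bhlhe40, and Igsf6 for Ms4a6d, at distances of 0.06 to 0.10, Dnajb6, Eif5, and Fam49a for Ms4a6c, Syngr4, Eya1, and Fam219a for Ms4a6b, Zcchc9, Lefty2, and Arhgap26 for Ms4a4c, and Coa5, Slc25a12, and Rnf135 for the brighter probe of Ms4a4b. Within 1 technical SD lay 26 genes for Ms4a4c, 14 for Ms4a6c, 13 for Ms4a6b, and 3 each for Ms4a6d and Ms4a4b, so that the closest 3 are not set apart from the others counted. Igsf6, a membrane protein of myeloid cells, gave 17022 in CpG, 8435 in IFN-γ + αIL-10R, and 27710 in Triple. Slc22a4 and Bhlhe40, which lay closer to Ms4a6d, were dimmer, with 123, 57.9, and 193 and with 173, 76.6, and 282. Lefty2 was near background, at 28.4, 39.2, and 55.3. AW112010, which lies in the MS4A block beside Ms4a8a, gave 2395, 71598, and 116143, a log2 fold of −4.93 for CpG over IFN-γ + αIL-10R.

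Among markers of other cells, the neutrophil list summed to 3786 in CpG, 9409 in IFN-γ + αIL-10R, and 4865 in Triple, a sum in which Ly6g gave 555, 7699, and 2658. S100a8 went the other way, with 297, 55.7, and 517, as did Camp, with 72.9 and 139 in CpG and Triple and a signal not well above background in IFN-γ + αIL-10R. Elane was highest in CpG, with 2839 in CpG, 1615 in IFN-γ + αIL-10R, and 1539 in Triple, and had no call. Of the 6 listed, 2 were called higher and 1 lower in Triple than in IFN-γ + αIL-10R, with a median log2 fold of 1.19, and Mpo and Ngp were at background on all arrays. The dendritic cell list summed to 36445, 36274, and 32841, of which Siglech gave 36076, 35974, and 29736. However, 3 of the 6 were called higher in Triple than in each of the other arrays: Ccr7, with 319 in CpG, 225 in IFN-γ + αIL-10R, and 2892 in Triple, Zbtb46, with 25.1, 36.3, and 133, and Xcr1, with 60.7 in Triple and at background elsewhere. Cd209a and Flt3 were at background on all arrays. The macrophage list summed to 610772, 572568, and 522271. The part of such cells in the MS4A values was not tested.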
